A study of Mus musculus with 12 samples.

Results

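The 30 genes described here are expressed by monocytes and macrophages, and their transcripts were measured in a population that sits far upstream of those cells. The population was LSK cells of the bone marrow, sorted as lacking lineage markers and carrying Sca-1 and Kit, which holds blood stem cells and multipotent progenitors. The genes were picked by name as a set of monocyte and macrophage genes, from the 15366 genes of the deposited table. Of the 30 genes, 29 passed the filter on low values (a CPM above 1 in at least 3 libraries) together with 13046 genes in all, and only Fn1 did not. CPM is a gene's read count relative to the library's total after the submitters' scaling, per 1e+06 reads.

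All mice were C57BL/6 and untreated, and each of the 4 genotypes had 3 libraries. The double lesion carried a human KDM6B transgene driven by the Vav promoter, Vav Cre and Tet2 flox/flox. KDM6B OE carried the Vav human KDM6B transgene, and its label names no Cre. Tet2 KO carried Vav Cre and Tet2 flox/flox, and the control group carried Vav Cre alone. As KDM6B OE may lack Cre, comparisons that include it cannot tell Cre apart from floxed Tet2 or the transgene. The Vav promoter is active throughout the blood system, so Cre and transgene act in stem cells and in all their blood progeny. KDM6B removes methyl groups from a lysine of histone H3, and TET2 oxidises methylated cytosine in DNA. Whether each of the 3 libraries of a genotype stands for its own mouse is not stated in the labels, and p-values then rest on a spread between libraries that may be partly technical.

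Monocytes arise from stem cells through progenitors that take on the transcription factors PU.1 and IRF8 and the receptor for the growth factor CSF1, encoded by Csf1r. Monocytes leave the marrow with the help of the chemokine receptor CCR2, and in tissues they can become macrophages or dendritic cells that engulf, kill and present microbes. Chronic myelomonocytic leukemia, named in the title of the series, is defined by a lasting excess of monocytes, and TET2 is often mutated in it. Progenitors are known to transcribe such genes at low levels before any monocyte has formed. In bulk RNA a larger share of cells with a transcript and more of it per cell cannot be told apart.

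Each library held 21935022 to 26263370 reads on listed genes. Tet2 averaged 32.9 ± 5.70 CPM in the double lesion, 79.0 ± 12.3 in KDM6B OE and 26.8 ± 4.10 in Tet2 KO, against 82.1 ± 15.5 in Vav Cre (SD, n = 3 each). The defining LSK transcripts Kit (356 to 907 CPM), Ly6a, which encodes Sca-1 (78.2 to 180.0 CPM), and Cd34 (821 to 1053 CPM) were present in every library. Transcripts of 4 Y-linked genes were present in double lesion 1, double lesion 3, Tet2 KO 1 and Vav Cre 1, at a mean of 58.2 to 67.5 CPM, and were at most 0.355 CPM elsewhere. The genotypes thus held libraries of different sex in different numbers, and KDM6B OE held none with Y-linked transcripts.

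The stretches of DNA just before the start sites of 4 of the genes are shown because these genes stood out in the comparisons that follow. Ccl6 alone held a motif among the called genes that could be searched, and Cybb, Ms4a6b and Ms4a6c were chosen after their values were seen. Each is the 250 bases before the RefSeq start site on the mouse build GRCm38.p6, read in the direction of the gene, at chr11:83593088-83593337 (minus strand) for Ccl6, chrX:9469325-9469574 (minus strand) for Cybb, chr19:11518309-11518558 (plus strand) for Ms4a6b and chr19:11469118-11469367 (plus strand) for Ms4a6c. Capitals mark matches to the C/EBP letters in Ccl6 and to the IRF letters in the others.
Ccl6: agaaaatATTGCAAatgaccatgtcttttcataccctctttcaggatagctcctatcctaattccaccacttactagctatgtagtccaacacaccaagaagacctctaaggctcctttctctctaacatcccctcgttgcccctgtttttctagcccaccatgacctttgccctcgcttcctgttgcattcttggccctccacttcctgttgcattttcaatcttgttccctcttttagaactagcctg
Cybb: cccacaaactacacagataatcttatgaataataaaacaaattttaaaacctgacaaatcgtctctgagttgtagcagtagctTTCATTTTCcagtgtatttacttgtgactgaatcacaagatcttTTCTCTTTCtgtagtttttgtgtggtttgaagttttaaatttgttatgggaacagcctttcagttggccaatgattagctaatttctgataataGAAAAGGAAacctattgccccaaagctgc
Ms4a6b: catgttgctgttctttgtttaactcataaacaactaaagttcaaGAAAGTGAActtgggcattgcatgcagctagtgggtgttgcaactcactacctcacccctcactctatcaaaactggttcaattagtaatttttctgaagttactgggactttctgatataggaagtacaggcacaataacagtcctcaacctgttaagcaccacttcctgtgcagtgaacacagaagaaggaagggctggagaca
Ms4a6c: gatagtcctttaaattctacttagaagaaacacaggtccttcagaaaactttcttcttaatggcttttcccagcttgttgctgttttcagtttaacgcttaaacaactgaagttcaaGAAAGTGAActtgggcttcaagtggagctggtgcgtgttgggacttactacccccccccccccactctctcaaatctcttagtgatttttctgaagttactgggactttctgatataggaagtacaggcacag
The letters searched on both strands of these windows were GAGGAAGT for PU.1, TTGCGCAA or TTGCAAT for C/EBP and GAAANNGAA for IRF, where N is any base. Of the 30 genes, 26 were in the RefSeq promoter table. Cd14, Csf1r, Adgre1 and Fn1 were not in it and were not searched. The IRF letters stood in 6 of the 26 (Ccr2, Ctss, Cybb, Ms4a6b, Ms4a6c and Tgfbi), or 23.1%, against 8.18% of 27025 genes. Cybb, on the X chromosome, held them 3 times, starting 167, 123 and 29 bases before the start site. Ms4a6b and Ms4a6c held the same letters, GAAAGTGAA, starting 206 and 133 bases before their start sites. These neighbouring genes of chromosome 19 also shared an unbroken run of 48 identical bases in the window. The PU.1 letters stood in Ctsc and Ly6c2, or 7.69% of the 26 genes against 2.79% of all genes. The C/EBP letters stood in Ccl6 alone among the 26, or 3.85% against 2.41% of all genes. A match describes letters in a window and is no proof that a factor binds there.

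The level of the 30 genes in LSK cells spanned a wide range. Per kilobase of exon, Lyz2, the lysozyme of phagocytes, was highest at a mean over the 12 libraries of 304 CPM per kb. It was followed by Emb, a surface glycoprotein that partners lactate transporters, at 72.6 CPM per kb, and Ctss, a lysosomal cysteine protease, at 50.5 CPM per kb. At the other end stood Fn1 (fibronectin) at 0.0479 CPM per kb, Fcgr1 (the high-affinity IgG receptor) at 0.346, Clec4a2 at 0.513, Adgre1 at 0.926 and Cd14 at 1.27 CPM per kb. Fcgr1, Adgre1 and Cd14, surface proteins of mature monocytes and macrophages, were thus among the 5 lowest. Summed over the 30 genes, CPM came to 1573 to 2234 in the double lesion, 1508 to 1832 in KDM6B OE and 1546 to 2400 in Tet2 KO, against 1638 to 2026 in Vav Cre.

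**Figure D1:**
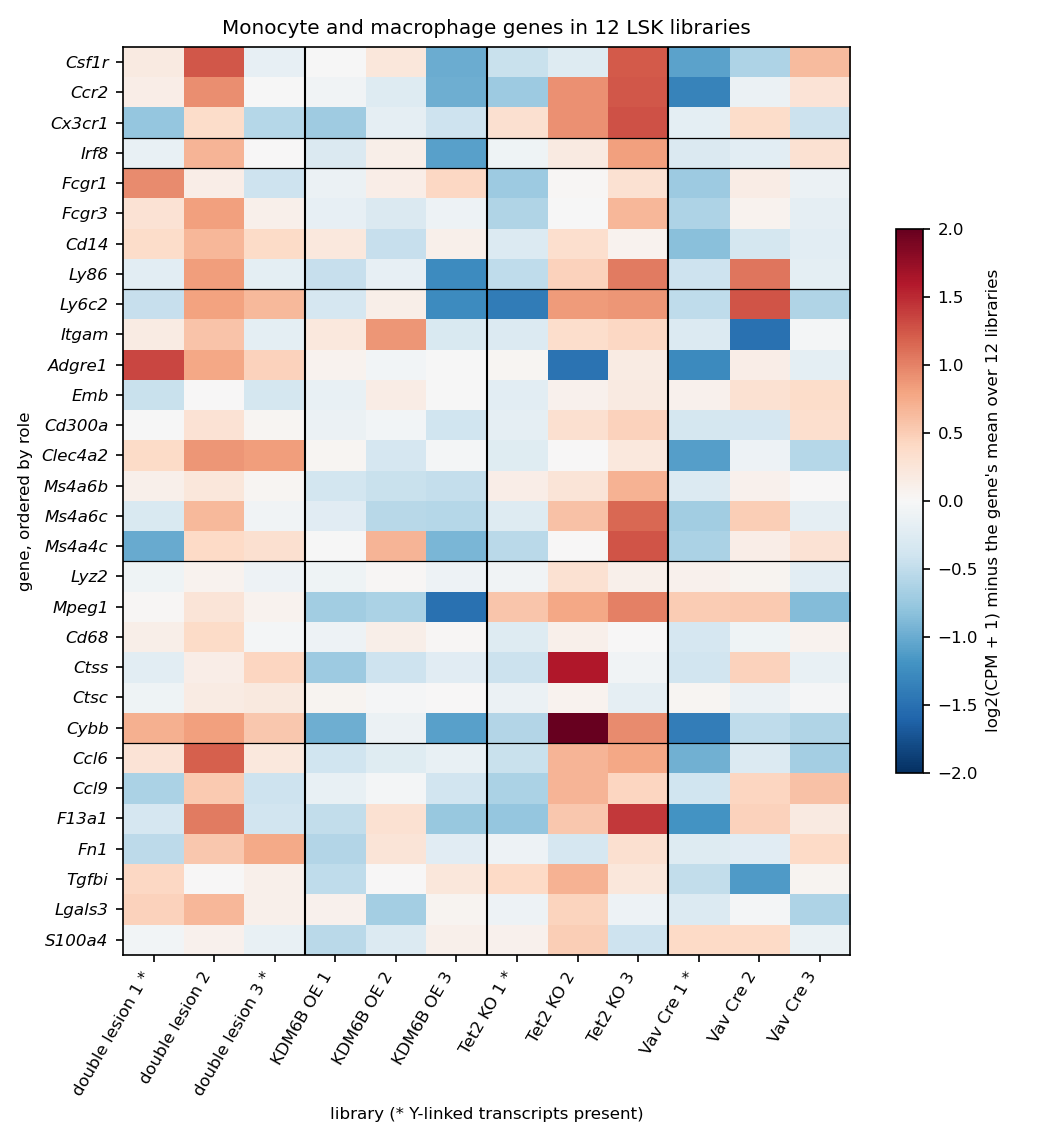
The 30 monocyte and macrophage genes (rows, ordered by role) in the 12 LSK libraries (columns), coloured by log2(CPM + 1) minus the gene's mean over all libraries, with an asterisk on libraries with Y-linked transcripts. Double lesion 2, Tet2 KO 2 and Tet2 KO 3 are mostly red, and Tet2 KO 1 and Vav Cre 1 mostly blue.

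With Tet2 floxed, most of the genes were on the high side, but none of them passed the test across all genes. The unadjusted limma p was smallest for Ms4a6b, Cybb, Mpeg1 and Ccl6. For Mpeg1 and Ms4a6b, however, the double lesion overlapped Vav Cre. The comparison set the 6 libraries with floxed Tet2 (double lesion and Tet2 KO) against the 6 with intact Tet2 (KDM6B OE and Vav Cre), with limma on log2(CPM + 1) and p-values adjusted over 13046 genes. Of the 29 genes tested, 27 had a positive log2 difference, against 53.3% of all genes, with a median of 0.48 against 0.02 over all genes. Many of the genes moved together by library, as given further on, so their signs are not separate results. A library's median deviation over the genes had a pooled SD of 0.28 within groups. In 0 of the 29 did every floxed library lie above every intact one (0.429% of all genes). None was called at an adjusted p under 0.05, where 0.207% of all genes were, and edgeR called none either (0.115% of all genes). DESeq2 called 4, Ccl6, Cybb, Ms4a6b and Mpeg1 (2.76% of all genes). At an unadjusted p under 0.05, 13 of the 29 genes (44.8%) were higher, against 7.30% of all genes, and 1, Emb, was lower, against 7.40%. Without Vav Cre 3 limma called 2 of the genes, Tgfbi and Ms4a6b, and without Tet2 KO 1 it called Cybb.

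Cybb encodes the catalytic subunit of the phagocyte NADPH oxidase, which makes superoxide to kill microbes. It had 16.6, 17.8 and 14.5 CPM in the double lesion, 4.45, 8.81 and 4.02 CPM in KDM6B OE and 6.09, 49.9 and 19.6 CPM in Tet2 KO, compared with 3.10, 6.5 and 6.02 CPM in Vav Cre. All 3 double lesion libraries lay above all libraries with intact Tet2, while Tet2 KO 1 lay within their range. The log2 difference of floxed against intact Tet2 was 1.56 ± 0.37 (SE; limma adjusted p = 0.0955). Tet2 KO against Vav Cre gave 1.70 ± 0.53 (limma adjusted p = 0.246), and the double lesion against Vav Cre 1.52 ± 0.53 (limma adjusted p = 0.0651). These comparisons share libraries, so their values are set side by side only.

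Ms4a6b and Ms4a6c belong to a family of membrane-spanning proteins expressed in myeloid cells. Ms4a6b had 56.3, 61.5 and 53.8 CPM in the double lesion, 40.5, 38.2 and 37.5 CPM in KDM6B OE and 57.7, 63.3 and 86.0 CPM in Tet2 KO, compared with 43.4, 56.1 and 52.7 CPM in Vav Cre. The KDM6B OE libraries were the lowest of all and close together, and Tet2 KO lay above Vav Cre without overlap. Floxed against intact Tet2 came to 0.49 ± 0.11 on the log2 scale (limma adjusted p = 0.0955). The double lesion differed from Vav Cre by 0.18 ± 0.15 (limma adjusted p = 0.454), and KDM6B OE by -0.37 ± 0.15 (limma adjusted p = 0.184). Ms4a6c had 43.3, 85.1 and 51.2 CPM in the double lesion, 45.7, 36.2 and 35.7 CPM in KDM6B OE and 44.6, 81.0 and 121 CPM in Tet2 KO, compared with 32.6, 75.8 and 47.2 CPM in Vav Cre. Its groups overlapped, and its log2 difference was 0.59 ± 0.25 (limma adjusted p = 0.299). Of the transcript of Ms4a6c, 59.1% is shared with BE692007 on the opposite strand, and the library kit does not mark strand, so its count is uncertain. Ms4a4c, of the same family, averaged 3.42 ± 1.97 CPM in the double lesion, 3.50 ± 2.31 in KDM6B OE and 4.87 ± 3.90 in Tet2 KO, against 3.27 ± 1.31 in Vav Cre (SD, n = 3 each).

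Mpeg1 encodes a pore-forming protein that phagocytes turn on engulfed bacteria. It had 16.4, 19.4 and 17 CPM in the double lesion, 9.51, 10.0 and 5.07 CPM in KDM6B OE and 24.1, 28.2 and 33.3 CPM in Tet2 KO, compared with 23.3, 23.6 and 8.35 CPM in Vav Cre. The Tet2 KO libraries were the 3 highest of all, and every double lesion library lay above every KDM6B OE library and below every Tet2 KO library. Vav Cre 3 stood far below the other two of its group. Floxed against intact Tet2 gave 0.89 ± 0.24 on the log2 scale (limma adjusted p = 0.131), and transgene against no transgene gave -0.83 ± 0.24 (limma adjusted p = 0.0583). Without Vav Cre 3 the transgene value was -1.06, with a limma adjusted p of 0.00237.

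**Figure D2:**
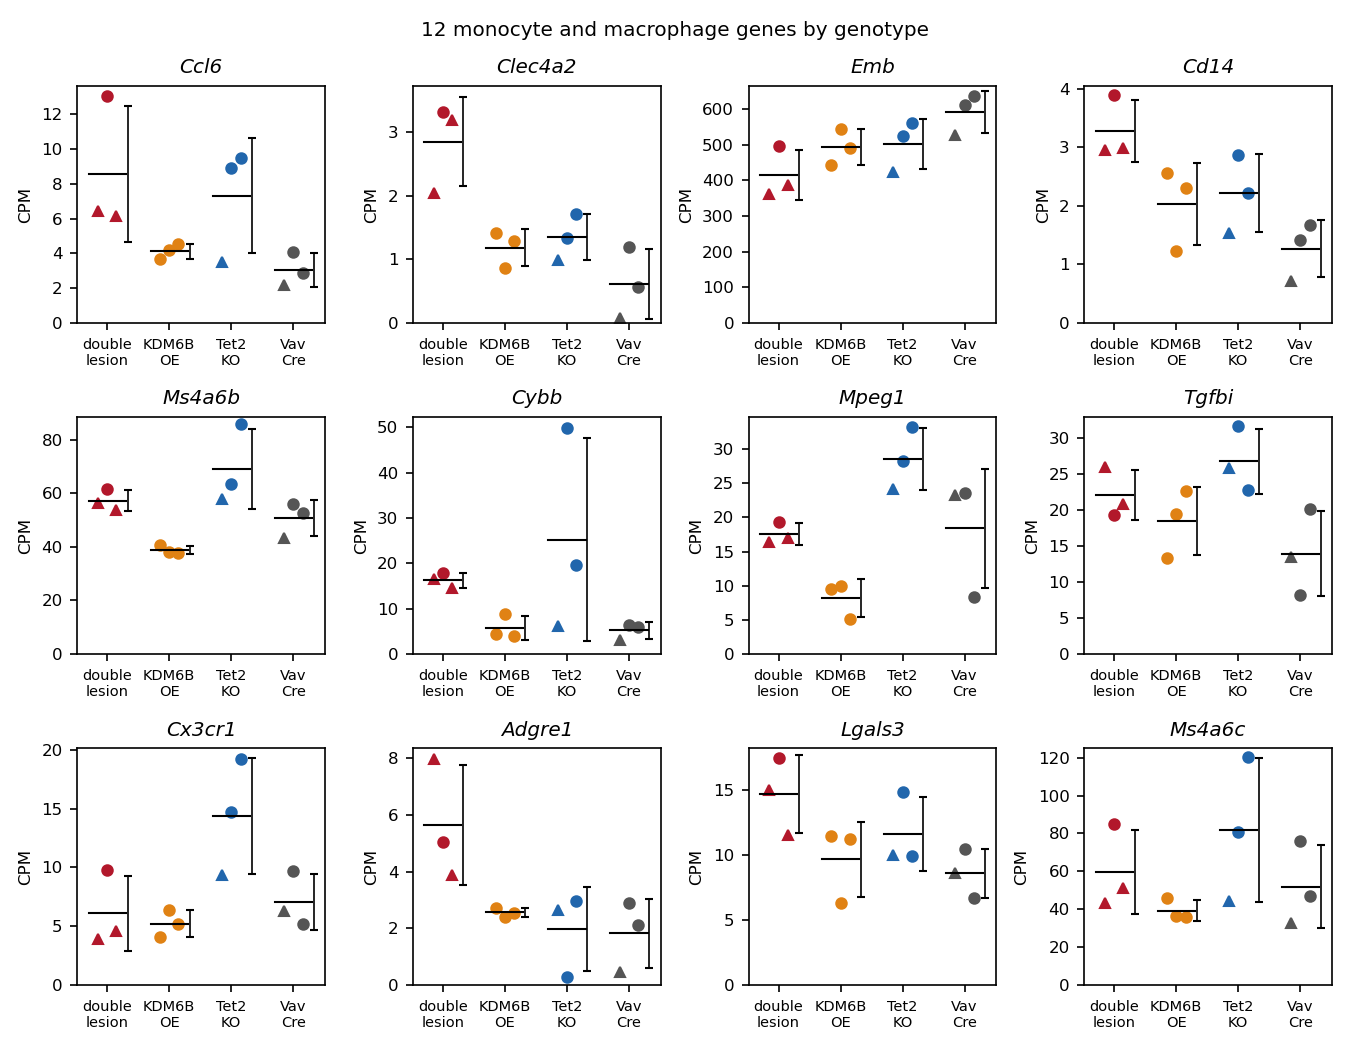
CPM of 12 monocyte and macrophage genes in each library, with a panel per gene and the genotypes along the x axis; lines are group means, bars beside them are ± SD (n = 3), and triangles are libraries with Y-linked transcripts. The double lesion lies above Vav Cre without overlap for Ccl6, Clec4a2, Cd14, Cybb, Adgre1 and Lgals3, and below it for Emb.

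Against Vav Cre, the double lesion had more Clec4a2, Ccl6 and Cd14 and less Emb. Those 4 were the only ones of the 29 genes called in this comparison by limma at an adjusted p under 0.05, a share of 13.8% against 14.9% of all genes, so the share called was close to the background. Higher were 3 (10.3%, against 7.34% of all genes) and lower was 1 (3.45%, against 7.58%). The median log2 difference of the 29 genes was 0.27, against 0.05 over all genes, and 22 were positive, against 54.4% of all genes. In 7 genes, Ccl6, Clec4a2, Cybb, Cd14, Lgals3, Adgre1 and Fcgr3, every double lesion library lay above every Vav Cre library, a share of 24.1% against 16.4% of all genes.

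Clec4a2, at chr6:123106428-123143999 on GRCm38 in the GENCODE annotation, encodes an inhibitory C-type lectin receptor of myeloid cells. It had 2.05, 3.32 and 3.19 CPM in the double lesion, 1.41, 0.861 and 1.29 CPM in KDM6B OE and 0.986, 1.34 and 1.71 CPM in Tet2 KO, compared with 0.0849, 1.19 and 0.571 CPM in Vav Cre. The double lesion libraries were the 3 highest of the 12, and Vav Cre 1 held 2 reads. The difference of the double lesion from Vav Cre was 1.30 ± 0.29 on the log2(CPM + 1) scale (limma adjusted p = 0.0159), and 2.21 in edgeR (adjusted p = 0.0496), since adding 1 to such low values shrinks a fold change. Its count is uncertain, because 17.6% of its transcript is near-identical to Clec4b1. The call was lost without double lesion 2 (limma adjusted p = 0.0554) and without double lesion 3 (limma adjusted p = 0.0529).

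Ccl6 (chr11:83587882-83593087) encodes a chemokine of the CC class made by myeloid cells. It had 6.45, 13.1 and 6.15 CPM in the double lesion, 3.65, 4.18 and 4.53 CPM in KDM6B OE and 3.52, 8.89 and 9.50 CPM in Tet2 KO, compared with 2.16, 4.07 and 2.86 CPM in Vav Cre. Double lesion 2 was the highest of the 12 libraries, and Tet2 KO 1 lay within the range of the libraries with intact Tet2. Double lesion against Vav Cre gave 1.20 ± 0.35 (limma adjusted p = 0.0371). Tet2 KO against Vav Cre gave 0.97 ± 0.35 (limma adjusted p = 0.284), and floxed against intact Tet2 0.90 ± 0.25 (limma adjusted p = 0.14). Leaving out any double lesion or KDM6B OE library, Vav Cre 1 or Vav Cre 2 ended the double lesion call, with limma adjusted p-values of 0.0509 to 0.136. Its neighbour Ccl9, a related chemokine, averaged 103 ± 47.5 CPM in the double lesion, 95.8 ± 11.5 in KDM6B OE and 131 ± 54.4 in Tet2 KO, against 131 ± 42.8 in Vav Cre (SD, n = 3 each), a double lesion difference of -0.38 ± 0.35 (limma adjusted p = 0.48).

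Cd14 (chr18:36725067-36726798), the co-receptor that hands bacterial lipopolysaccharide to its Toll-like receptor, had 2.95, 3.89 and 3.0 CPM in the double lesion, 2.55, 1.23 and 2.30 CPM in KDM6B OE and 1.54, 2.87 and 2.23 CPM in Tet2 KO, compared with 0.722, 1.42 and 1.67 CPM in Vav Cre. Again the double lesion libraries were the 3 highest. Their difference from Vav Cre was 0.93 ± 0.28 (limma adjusted p = 0.0407). edgeR gave an adjusted p of 0.0711, and the call was also lost without any double lesion library, KDM6B OE 1, KDM6B OE 3, Tet2 KO 3, Vav Cre 1 or Vav Cre 2 (limma adjusted p = 0.0509 to 0.123).

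Emb (chr13:117208536-117274415) went the other way. It had 362, 496 and 388 CPM in the double lesion, 444, 545 and 492 CPM in KDM6B OE and 425, 525 and 560 CPM in Tet2 KO, compared with 527, 612 and 637 CPM in Vav Cre. Every double lesion library was below every Vav Cre library. The difference was -0.52 ± 0.14 (limma adjusted p = 0.0283), and it was not called without double lesion 1, double lesion 3 or Vav Cre 2 (limma adjusted p = 0.0795 to 0.132). Of its transcript, 23.5% is shared with Gm17509 on the opposite strand. With only the double lesion and Vav Cre libraries in the fit, none of the 4 calls held (limma adjusted p = 0.0681 to 0.0887) and Cybb was the only one of the 29 genes called (limma adjusted p = 0.0371). The count of genes called was 0 without double lesion 3, 1 without double lesion 1, double lesion 2 or Vav Cre 2, and 2 without KDM6B OE 1, KDM6B OE 3 or Vav Cre 1.

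Adgre1, the surface receptor long used to mark mouse macrophages, and Lgals3, a galectin, were higher without overlap but not called. Adgre1 had 7.98, 5.06 and 3.89 CPM in the double lesion, 2.73, 2.42 and 2.54 CPM in KDM6B OE and 2.66, 0.278 and 2.98 CPM in Tet2 KO, compared with 0.467, 2.88 and 2.11 CPM in Vav Cre. Its difference from Vav Cre was 1.30 ± 0.44 (limma adjusted p = 0.0611). Lgals3 had 15.1, 17.5 and 11.6 CPM in the double lesion, 11.5, 6.35 and 11.2 CPM in KDM6B OE and 9.99, 14.9 and 9.94 CPM in Tet2 KO, compared with 8.66, 10.5 and 6.68 CPM in Vav Cre, a difference of 0.71 ± 0.26 (limma adjusted p = 0.0811). Without Tet2 KO 2 Adgre1 was called (limma adjusted p = 0.0251), as it was without Vav Cre 3 (limma adjusted p = 0.0459).

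**Figure D3:**
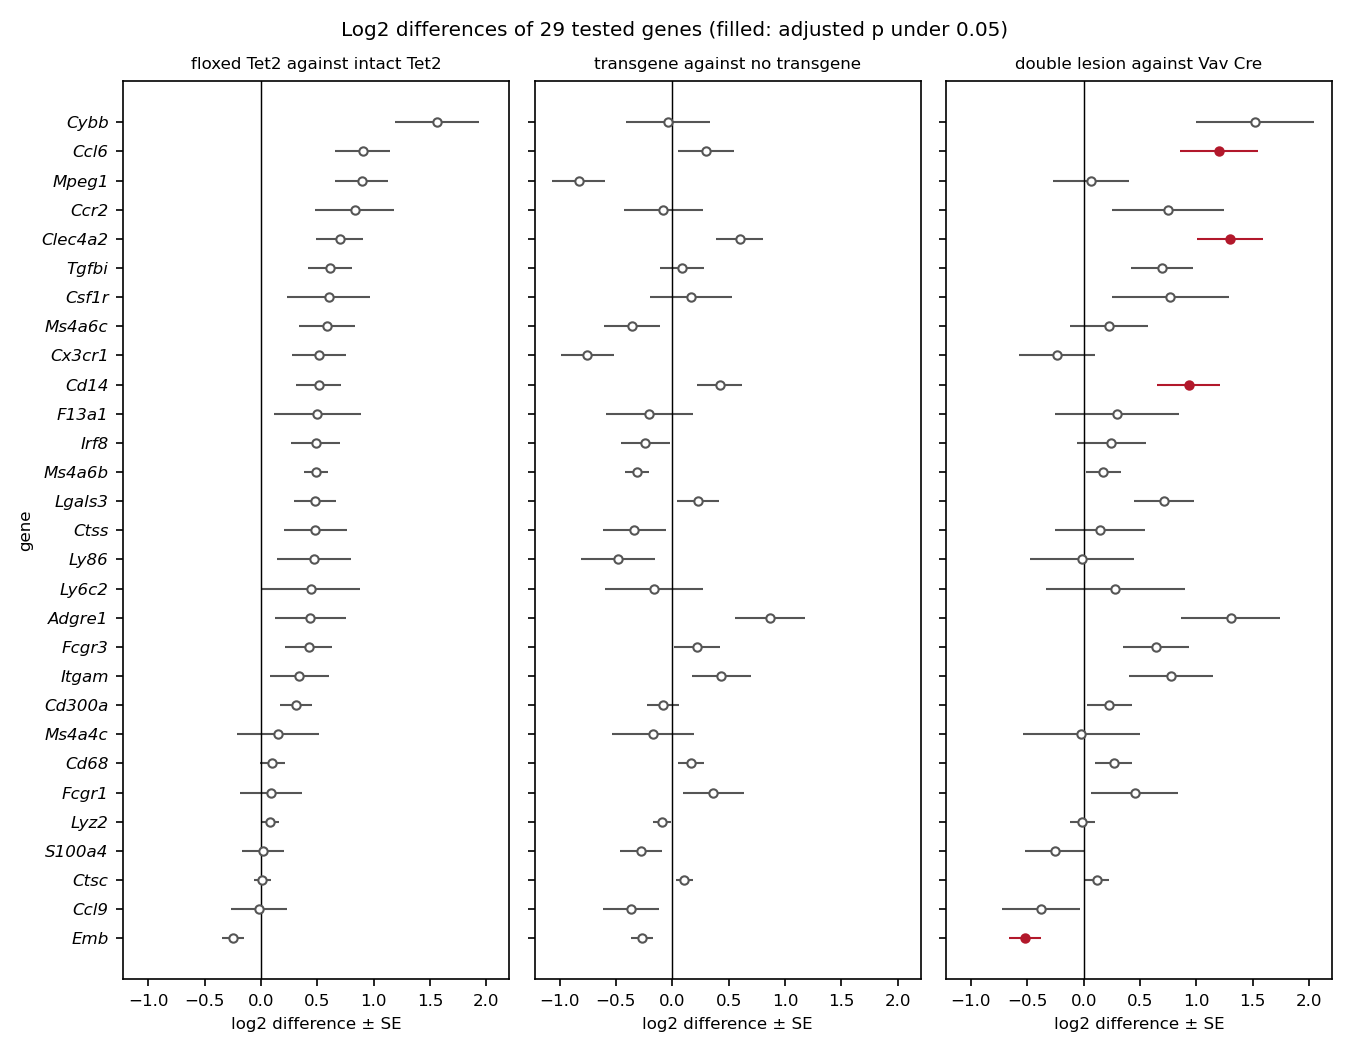
Log2 differences ± SE of the 29 tested genes (rows) for floxed against intact Tet2, transgene against no transgene, and the double lesion against Vav Cre (panels), from limma on log2(CPM + 1), with filled points at an adjusted p under 0.05. In the first panel 27 of 29 genes lie right of 0, and only the third panel holds filled points, 4 of them.

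Compared with KDM6B OE, the double lesion was higher in most of the genes. Of the 29, 26 had a positive difference, against 47.8% of all genes, and the median was 0.55 against -0.01 over all genes. In 12 of the 29 (41.4%, against 8.98% of all genes) every double lesion library lay above every KDM6B OE library, and in none did every one lie below (9.72% of all genes). The 12 were Ccl6, Clec4a2, Cybb, Cd14, Lgals3, Adgre1, Fcgr3, Ccr2, Cd300a, Ms4a6b, Ctss and Mpeg1. No gene was called by limma or edgeR (0% of all genes each), and DESeq2 called none of the 29 (0.153% of all genes). At an unadjusted p under 0.05 limma had 6 of the 29 higher (20.7%, against 2.77% of all genes). With only these groups in the fit, 2 were called, Cybb at 1.42 (limma adjusted p = 0.0295) and Ms4a6b at 0.55 (limma adjusted p = 0.0462).

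Tet2 KO against Vav Cre had 25 of the 29 genes positive, against 54.2% of all genes, with a median of 0.39 against 0.03. None was called by limma (0.0307% of all genes) or edgeR (0.0307%), and DESeq2 called Cybb (1.23% of all genes). At an unadjusted p under 0.05, 6 were higher (20.7%, against 8.05% of all genes). Tgfbi, a secreted matrix protein induced by the growth factor TGF-beta, had 26.0, 19.3 and 20.8 CPM in the double lesion, 13.3, 19.5 and 22.7 CPM in KDM6B OE and 25.8, 31.7 and 22.8 CPM in Tet2 KO, compared with 13.5, 8.23 and 20.1 CPM in Vav Cre. Tet2 KO lay above Vav Cre without overlap in Tgfbi, Ms4a6b and Mpeg1 (10.3% of the 29, against 6.87% of all genes). For Tgfbi the values gave a difference of 0.96 ± 0.28 (limma adjusted p = 0.234), and without Vav Cre 3 Tgfbi was called at 1.25 (limma adjusted p = 0.0322).

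The transgene had no common direction across the genes. KDM6B OE against Vav Cre had 13 of 29 positive (55.0% of all genes), a median of -0.03 against 0.04, and no call in limma (0.598% of all genes) or edgeR (0.598%). DESeq2 called Mpeg1 (5.65% of all genes), and 3 genes had an unadjusted limma p under 0.05 (10.3%, against 21.6%). Without Vav Cre 3 limma called Mpeg1 (adjusted p = 0.00493). The 6 libraries with the transgene against the 6 without had 12 of 29 positive (53.0% of all genes), with a median of -0.08 against 0.02. None was called by limma, against 4.35% of all genes, or by edgeR, against 3.27%, while DESeq2 called Ms4a6b, Cx3cr1 and Mpeg1 (12.4% of all genes). At an unadjusted p under 0.05, 2 were higher (6.90%, against 14.5%) and 4 lower (13.8%, against 12.4%). Cx3cr1, the fractalkine receptor of patrolling monocytes, had 3.88, 9.78 and 4.63 CPM in the double lesion, 4.09, 6.35 and 5.23 CPM in KDM6B OE and 9.35, 14.7 and 19.2 CPM in Tet2 KO, compared with 6.28, 9.74 and 5.18 CPM in Vav Cre. Only Tet2 KO stood out, and its lowest library overlapped the highest of the other groups. The transgene difference of Cx3cr1 was -0.75 ± 0.24 (limma adjusted p = 0.0744), and that of the double lesion from Tet2 KO -1.16 ± 0.34 (limma adjusted p = 0.266). Without Vav Cre 3 the transgene difference was called (-0.84, limma adjusted p = 0.0286).

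Between the double lesion and Tet2 KO the genes were mixed, with 12 of 29 positive (49.4% of all genes) and a median of -0.13 against -0.004. limma and edgeR called none of the 29 (0.215% and 0.153% of all genes), DESeq2 none (1.10%), and 3 had an unadjusted limma p under 0.05 (10.3%, against 10.6%). Clec4a2, Cd14 and Adgre1 were higher without overlap in the double lesion (10.3%, against 10.8% of all genes), and Mpeg1 was lower (3.45%, against 10.9%). The interaction, which asks whether floxed Tet2 acts differently with and without the transgene, was called for none of the 29 by limma, edgeR or DESeq2 (0%, 0% and 0.0383% of all genes), and 0 of the 29 had an unadjusted limma p under 0.05, against 4.43% of all genes. The difference with floxed Tet2 was therefore not shown to change between the backgrounds in any of the genes. In the transgene background, a difference in Cre may be part of it.

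The remaining genes were called by limma in no comparison of the 8, in the fit with no term beyond genotype. Csf1r averaged 32.7 ± 18.3 CPM in the double lesion, 19.5 ± 7.97 in KDM6B OE and 29 ± 20.7 in Tet2 KO, against 19.6 ± 13.3 in Vav Cre (SD, n = 3 each), and 18.6% of its transcript is shared with Hmgxb3 on the opposite strand. Ccr2 averaged 18.1 ± 7.16 CPM in the double lesion, 10.0 ± 3.32 in KDM6B OE and 22.2 ± 13 in Tet2 KO, against 11.1 ± 5.90 in Vav Cre (SD, n = 3 each). Irf8, the transcription factor that directs progenitors to monocytes and dendritic cells, averaged 161 ± 52.7 CPM in the double lesion, 109 ± 42.7 in KDM6B OE and 177 ± 60.5 in Tet2 KO, against 134 ± 31.9 in Vav Cre (SD, n = 3 each). In these 3 genes the means of Tet2 KO and the double lesion were above those of KDM6B OE and Vav Cre. KDM6B OE had the lowest mean, though for Csf1r it was nearly level with Vav Cre. None of the differences of these 3 genes passed the test in that fit. Ccr2 and Fcgr3 were called with a term for Y-linked transcripts, as given further on.

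Among the receptors, Fcgr3, an activating IgG receptor, averaged 24.3 ± 6.85 CPM in the double lesion, 15.4 ± 1.11 in KDM6B OE and 19.2 ± 8.79 in Tet2 KO, against 15.1 ± 3.70 in Vav Cre (SD, n = 3 each). Of its transcript, 37.8% is near-identical to Fcgr2b. Fcgr1 stayed at or below 2.46 CPM and Fn1 at or below 1.52 CPM in every library. Ly6c2, the marker of inflammatory monocytes, ran from 15.2 to 101 CPM over the libraries, and 100% of its transcript is near-identical to Ly6c1. Lyz2 ran from 345 to 495 CPM, and 96% of its transcript is near-identical to Lyz1. The lysosomal genes Cd68 (25.3 to 42.0 CPM) and Ctsc (98.1 to 126 CPM), which encode a membrane glycoprotein and a protease that activates granule enzymes, and Lyz2 varied least. F13a1, the A subunit of a clotting factor, varied widely, from 21.9 to 139 CPM. Cd300a, an inhibitory receptor, averaged 73.7 ± 8.57 CPM in the double lesion, 59.9 ± 7.61 in KDM6B OE and 79.6 ± 17.8 in Tet2 KO, against 64.1 ± 18.7 in Vav Cre (SD, n = 3 each). Ctss had 189 CPM in Tet2 KO 2, and 37.0 to 85.2 CPM in the other libraries. Ly86, the partner of a Toll-like receptor homologue, ran from 3.79 to 23.0 CPM, Itgam, an integrin subunit, from 8.97 to 50.7 CPM, and S100a4, a calcium-binding protein, from 5.68 to 12.6 CPM. The counts of Itgam and S100a4 are uncertain because 73.8% and 60.6% of their transcripts are shared with Gm49368 and Gm42674.

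The genes varied more between libraries of 1 genotype than most genes did. Their median SD within groups was 0.474 on the log2 scale, against 0.233 over the 13046 genes, and 82.8% of the 29 lay above that value. The libraries of a group were ordered much alike by many of the 30 genes. Double lesion 2 was the highest of its group in 24 of the 30, Tet2 KO 3 in 20, and KDM6B OE 2 and Vav Cre 2 in 16 each. Tet2 KO 1 was the lowest of its group in 24 and the highest in 0, and Vav Cre 1 was the lowest in 21. Double lesion 1 and double lesion 3 were lowest in 15 and 14, and KDM6B OE 3 in 15.

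The 4 libraries with Y-linked transcripts each had a lower sum over the 30 genes than the libraries of their genotype without them. Not every low library held them, as KDM6B OE 3, which lacked the transcripts, had the lowest sum of the 12 at 1508 CPM. In a fit with a term for these transcripts, 26 of the 29 genes were lower in the libraries that held them (89.7%, against 50.1% of all genes), at a median of -0.51 against -0.0004 over all genes. Lower at an unadjusted p under 0.05 were 17, against 4.11% of all genes. The term was called for 4 of the 29, all lower, against 0.314% of all genes in either direction, namely Ccl9 (-1.05 ± 0.11, limma adjusted p = 0.000585), F13a1 (-1.56 ± 0.22, limma adjusted p = 0.0119), Ccr2 (-1.36 ± 0.23, limma adjusted p = 0.0283) and Ms4a6c (-0.94 ± 0.17, limma adjusted p = 0.0338). F13a1 for example had 40.7, 39.3, 29.7 and 21.9 CPM in double lesion 1, double lesion 3, Tet2 KO 1 and Vav Cre 1, the libraries with the transcripts. In the same genotypes it had 107 CPM in double lesion 2, 75.1 and 139 CPM in Tet2 KO 2 and 3, and 71.6 and 58.4 CPM in Vav Cre 2 and 3, which lacked them. The split rests on 4 libraries, and whether sex or something else that these libraries share goes with it was not tested.

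With that term in the fit, more of the genes were called. For floxed against intact Tet2 limma then called 5 of the 29, against 0.268% of all genes: Ccl6 at 1.19 (adjusted p = 0.0275), Cybb at 1.92, Ccr2 at 1.28, Ms4a6b at 0.58 and Ms4a6c at 0.90 (adjusted p = 0.0365 each). For the double lesion against Vav Cre it called 7, against 10.4% of all genes, adding Cybb (1.88, limma adjusted p = 0.0239), Fcgr3 (0.88, limma adjusted p = 0.0245) and Ccr2 (1.20, limma adjusted p = 0.0231). For the transgene it called 3, all lower, against 5.94% of all genes: Emb at -0.27 (adjusted p = 0.0391), Ccl9 at -0.36 (adjusted p = 0.0364) and Cx3cr1 at -0.75 (adjusted p = 0.0404). For KDM6B OE against Vav Cre it called Ccl9 alone (-0.74, limma adjusted p = 0.0234), against 1.24% of all genes. Among the libraries without Y-linked transcripts, floxed Tet2 (3 libraries) lay above intact Tet2 (5 libraries) without overlap in 8 of the 29 genes, Ccr2, Cx3cr1, Ms4a6b, Ms4a6c, Lyz2, Cybb, Ccl6 and F13a1, against 2.23% of all genes. There the median difference was 0.60, against -0.003 over all genes. Among those with the transcripts it was 0.31 against 0.02, with 3 floxed libraries and 1 intact one. Cybb differed by 2.0 without and 1.60 with Y-linked transcripts, Ccl6 by 1.23 and 0.97, and Ccr2 by 1.26 and 1.14. Other genes did not keep their direction, as 27 of the 29 were positive without the transcripts and 22 with them. Mpeg1 differed by 1.31 without and -0.29 with Y-linked transcripts, Cx3cr1 by 1.13 and -0.15, and Adgre1 by -0.17 and 1.89. These sets of libraries also differed in genotype. The intact library with the transcripts was Vav Cre 1, and no KDM6B OE library held them. For Tet2 KO against Vav Cre, Mpeg1 differed by 1.06 without and 0.05 with them. Cx3cr1 differed there by 1.13 and 0.51, and Adgre1 by -0.62 and 1.32. For the double lesion against Vav Cre, Mpeg1 differed by 0.43 and -0.46, Cx3cr1 by 0.40 and -0.47, and Adgre1 by 0.80 and 2.18.

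Of the markers of other blood lineages, those of neutrophils followed the same libraries and those of erythroid cells did so in part. Those of dendritic, mast and B cells did not. The 17 neutrophil genes in the table, mostly the granule enzymes Mpo, Prtn3, Ctsg and Elane, summed to 3092, 5988 and 3779 CPM in the double lesion, 3137, 3805 and 2720 CPM in KDM6B OE and 2762, 5117 and 7343 CPM in Tet2 KO, compared with 2262, 4200 and 4932 CPM in Vav Cre. As with the monocyte genes, double lesion 2, Tet2 KO 2 and Tet2 KO 3 were the 3 highest, and each library with Y-linked transcripts was below those of its genotype without them. Among genes of later neutrophils, Camp and Retnlg were at most 3.24 CPM, while S100a8 reached 11.1 CPM and Ngp 10.4 CPM, both in double lesion 3. S100a9 had 2.28, 4.08 and 9.84 CPM in the double lesion, 0.925, 0.942 and 4.18 CPM in KDM6B OE and 3.64, 3.98 and 5.01 CPM in Tet2 KO, compared with 0, 1.01 and 0.0879 CPM in Vav Cre. For floxed against intact Tet2 the median of the 17 genes was 0.60 with 0 called by limma, and for the double lesion against Vav Cre 8 were called higher, where 7.34% of all genes were.

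The 15 dendritic cell genes summed to 1400, 1434 and 1338 CPM in the double lesion, 672, 637 and 579 CPM in KDM6B OE and 1038, 1816 and 896 CPM in Tet2 KO, compared with 958, 756 and 527 CPM in Vav Cre. Vav Cre 1 was the highest of its group here and Tet2 KO 3 the lowest, unlike in the monocyte genes. Of the 14 tested, 3 were called higher with floxed Tet2 (Xcr1, H2-Aa and H2-Eb1), where 0.169% of all genes were. The 13 mast cell, basophil and eosinophil genes summed to 4480, 1919 and 955 CPM in the double lesion, 568, 301 and 1142 CPM in KDM6B OE and 474, 1448 and 1072 CPM in Tet2 KO, compared with 1042, 586 and 186 CPM in Vav Cre. Double lesion 1 and Vav Cre 1 were the highest of their groups, and Prg2, an eosinophil granule protein, stood at 2917 CPM in double lesion 1. Summed over 6 erythroid genes, library 1 was the lowest of each group. The sums were 249 CPM in double lesion 1, 417 in KDM6B OE 1, 335 in Tet2 KO 1 and 336 in Vav Cre 1. Double lesion 3, also with Y-linked transcripts, was the highest of its group at 572 CPM. Vav Cre 2 stood far above all others at 1730 CPM, mostly from Car1 at 1422.5 CPM. The other libraries ran from 249 to 690 CPM. Summed over 12 stem cell and LSK genes, library 1 was the highest of each group. Those sums were 4336 CPM in double lesion 1, 3875 in KDM6B OE 1, 4003 in Tet2 KO 1 and 3356 in Vav Cre 1. The 22 immediate early genes, which respond to handling of cells, summed to 7665 to 11499.5 CPM in the double lesion, 7608 to 10971 CPM in KDM6B OE and 1605 to 3234 CPM in Tet2 KO, against 1478 to 2738 CPM in Vav Cre. Of the 21 tested, limma called 18 higher with the transgene (2.52% of all genes) and 1 higher with floxed Tet2 (0.169%). The part of these lineages and of the immediate early genes in the results above was not tested.

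**Figure D4:**
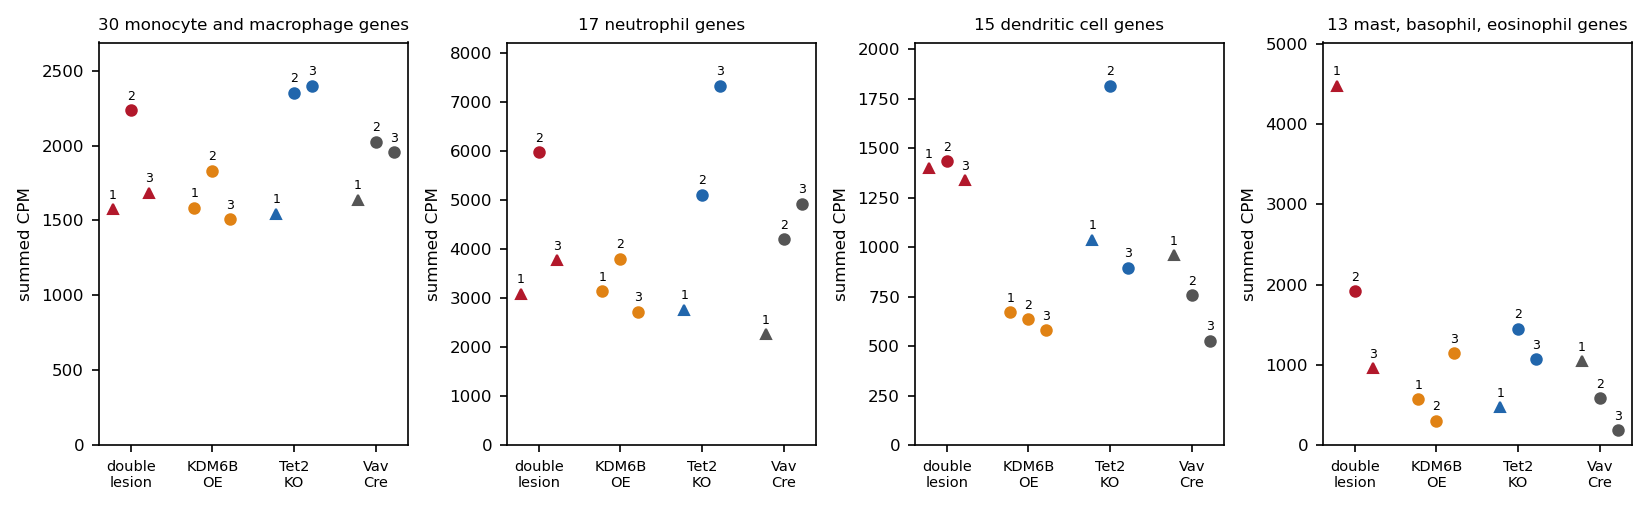
Summed CPM in each library (numbered) of the 30 monocyte and macrophage genes, 17 neutrophil genes, 15 dendritic cell genes and 13 mast cell, basophil and eosinophil genes, by genotype on the x axis, with triangles for libraries with Y-linked transcripts. Tet2 KO 1 and Vav Cre 1 are the lowest of their groups in the first and second panels, and double lesion 1 stands alone at 4480 CPM in the last.

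Other genes of mononuclear phagocytes, from a list of 60 of which 55 were tested, showed a different pattern. For floxed against intact Tet2, 37 of 55 were positive (53.3% of all genes) with a median of 0.17 and none was called by limma. For the double lesion against Vav Cre, limma called 12 higher and 3 lower, against 7.34% and 7.58% of all genes. The complement genes of macrophages led them, as C1qb averaged 23.2 ± 7.03 CPM in the double lesion, 19 ± 7.17 in KDM6B OE and 6.39 ± 1.82 in Tet2 KO, against 5.81 ± 3.69 in Vav Cre (SD, n = 3 each). Its difference was 1.94 ± 0.40 (limma adjusted p = 0.0114), that of C1qc 1.73 ± 0.39 (limma adjusted p = 0.0159), that of C1qa 2.10 ± 0.49 (limma adjusted p = 0.0181) and that of Pirb, an inhibitory receptor, 1.34 ± 0.28 (limma adjusted p = 0.0114). For the transgene 5 of the 55 were called higher (C1qb, C1qc, C1qa, Mrc1 and Ms4a7) and 1 lower (S100a10), against 2.52% higher and 1.83% lower of all genes. Of 20 myeloid transcription factors, 5 were called higher with the transgene (2.52% of all genes), among them Klf4 (2.01 ± 0.34, limma adjusted p = 0.00981), and none was called with floxed Tet2. Klf4, Nr4a1, Egr1 and Egr2 stand both in this list and in that of the immediate early genes, so the lists are not separate results.

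Among all 13046 genes, those whose pattern over the 12 libraries was most like that of the genes with the strongest differences between genotypes were mostly not monocyte genes. For Ms4a6b they were Ifit1bl2 (Pearson r = 0.92), Gng12 (r = 0.89), Ms4a6c (r = 0.86), Gm6251 (r = 0.86) and Klrd1 (r = 0.84). For Clec4a2 they were Snx22 and Lss (r = 0.90 each), Cd14 (r = 0.90), Fam129c and Alox15 (r = 0.87 each). For Mpeg1 they were Sass6, Tmem209, Kmo, Clec11a and Ccndbp1 (r = 0.84 to 0.87). Thus 1 member of the set was among the 5 closest to Ms4a6b and 1 among the 5 closest to Clec4a2. These r-values describe 12 libraries that share their depth and genotype differences, and they were picked as the highest among 13046 genes. Some matches were low, with 0.0820 to 2.23 CPM for Ifit1bl2, 0.574 to 1.63 for Gm6251 and 0.0849 to 3.21 for Snx22.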

How the data were processed

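Poly(A) RNA from 10 to 20 ng of total RNA of sorted LSK cells was made into libraries with the SMARTer v4 and Nextera kits, per the labels' protocols. Such kits do not mark strand. The build mm10 and the tools TopHat2 (2.0.10), HTSeq (0.6.0) and edgeR (3.8.6) are named per the submitters' processing notes. The annotation was not given in the sources used here, nor was the strand setting. What the authors deposited is a signal per gene and library, read counts divided by an effective library size, which is CPM after the authors' edgeR scaling. Whole reads were recovered for 100% of values (within 1e-06 reads) and used only for edgeR and DESeq2.

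The test was limma 3.58.1 (trended empirical Bayes, R 4.3.3) on log2(CPM + 1) of the 13046 genes that passed the filter (at least 3 libraries above a CPM of 1), with all 12 libraries in 1 fit of 1 mean per group. The pseudocount of 1 understates changes of low genes. Adjusted p-values are Benjamini-Hochberg over all genes tested in a comparison, called at 0.05. The 8 comparisons were fitted in 1 model. Genes described in full were those called in at least 1 comparison, filled up to 12 by the smallest limma p. For patterns, the 3 genes with the largest F statistic over the groups were matched to 5 genes each. The design had foreseen plain CPM, and its test was kept for the signal unit. The genes and lists were chosen with earlier results of these data known. Alternatives were another pseudocount, no filter, rescaling, edgeR 4.0.16, DESeq2 1.42.0, only the compared groups, a replicate block, a term for Y-linked transcripts, and leaving out each library. Values within libraries with and without Y-linked transcripts were differences of mean log2(CPM + 1).

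Exon overlaps come from GENCODE vM21 (GRCm38) and near-identical transcripts from BLAST 2.17.0 (at least 95% identity over at least 100 bases). Start-site sequences are from RefSeq (GRCm38.p6). The scripts were tested on simulated data. Libraries of a group differed well beyond sampling noise, so each library counted once. Fn1 was left out of tests.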

Additional observations from a re-analysis of the deposited data

How the results depend on the processing

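The counts of the 29 genes called varied with the processing. Against Vav Cre, the double lesion (4 genes called) had 1 with only the compared groups, 7 with a term for Y-linked transcripts, 5 with the replicate block (adding Cybb, adjusted p = 0.0203) and 0 to 6 when 1 library was left out. For floxed against intact Tet2 (0 genes) it was 4 in DESeq2, 5 with the Y-linked term, 1 with the replicate block (Cybb, adjusted p = 0.0313) and 0 to 2 without 1 library. For the transgene (0 genes) it was 3 in DESeq2, 3 with the Y-linked term, 3 with the replicate block (Emb, Cx3cr1 and Mpeg1) and 0 to 2 without 1 library. KDM6B OE against Vav Cre (0 genes) had 1 in DESeq2, 1 with the Y-linked term and 0 to 1 without 1 library, and Tet2 KO against Vav Cre (0 genes) had 1 in DESeq2 and 0 to 1 without 1 library. The double lesion against KDM6B OE (0 genes) had 2 with only the compared groups. The causes were not tested. No label says that replicate numbers pair libraries. Deviations of 10 of 18 same-number pairs correlated above 0.1, and 8 of 12 libraries correlated best with their own number, as a hint from the data. The numbers differed in this. Double lesion 1, Tet2 KO 1 and Vav Cre 1, which all held Y-linked transcripts, correlated at 0.317 to 0.388. Pairs of number 2 ran from 0.0112 to 0.340, and those of number 3 from -0.149 to 0.300.

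The number of genes called in all moved too. It was 1947 for the double lesion set against Vav Cre, with 304 to 3585 when 1 library was left out and 289 to 2699 under the other alternatives. For floxed against intact Tet2 it was 27, with 2 to 284 and 15 to 360. For the transgene it was 568, with 94 to 2771 and 391 to 1624. For KDM6B OE against Vav Cre it was 78, with 22 to 1934 and 22 to 737, and for Tet2 KO against Vav Cre 4, with 1 to 307 and 0 to 160. For the double lesion against Tet2 KO it was 28, with 9 to 55 and 18 to 143, and against KDM6B OE 0, with 0 to 5 and 0 to 61. For the interaction it was 0, with 0 to 0 and 0 to 5. In floxed against intact Tet2, the median of the 29 genes stayed between 0.30 and 0.66 and 25 to 28 genes stayed positive under all 19 alternatives. Rescaling to equal totals moved the median of all genes in the double lesion against Vav Cre to 0.12. Genes under about 3 CPM, such as Fcgr1, Clec4a2 and Cd14, are limited by depth.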
